A study of Mus musculus with 4 samples.

Results

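The signalling lymphocytic activation molecule (SLAM) family was followed at the RNA level in thymocytes of Rag1-deficient mice. Its members were taken by gene name: the 7 receptor genes Slamf1, Slamf6, Slamf7, Cd48, Cd84, Ly9 and Cd244 (now Cd244a), and Sh2d1a, which encodes their adaptor SAP. These 8 genes, of 33114 named genes in each library, were all found in all 4 libraries. Flow-sorted thymocytes came from Rag1-/- mice on 2 inbred backgrounds, C57BL/6 (B6) at 4 and 7 weeks and NOD, a strain prone to autoimmune diabetes, at 4 and 6.5 weeks of age. All groups carried the Rag1 deletion, so thymocytes of neither strain could assemble an antigen receptor. There was 1 library of polyadenylated RNA per strain and age. Whether a library came from 1 mouse or a pool is not given in the sources used here, and the values of Xist and Ddx3y further on bear on it.

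SLAM receptors are surface proteins of the immunoglobulin superfamily that pass signals between neighbouring blood cells. Most bind a copy of themselves on the other cell, whereas CD48, which has a lipid anchor in place of a cytoplasmic tail, is the ligand of CD244. The cytoplasmic tails of the signalling receptors recruit SAP, which brings in the kinase Fyn, and in its absence inhibitory phosphatases can bind instead. In the thymus SLAM and SAP signals between thymocytes are needed for natural killer T cells to develop. The receptor genes lie side by side on chromosome 1, in a segment that is inherited as different haplotypes in NOD and B6, and Sh2d1a lies on chromosome X.

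The promoters of Slamf1, Cd48 and Cd244 are shown because these members had the widest separation between the strains in the values given further on. RefSeq promoters were matched to 6 of the 8 members. The sequences are the 250 bases before the annotated start in B6 (RefSeq, build GRCm38.p6, plus strand), at chr1:171766882-171767131 for Slamf1, chr1:171681742-171681991 for Cd48 and chr1:171558943-171559192 for Cd244. Capitals mark matches on either strand to the E-box CANNTG, the RUNX motif TGTGGT, the GATA motif NGATAA or the ETS motif CCGGAA, which belong to factor families active in thymocytes.
Slamf1: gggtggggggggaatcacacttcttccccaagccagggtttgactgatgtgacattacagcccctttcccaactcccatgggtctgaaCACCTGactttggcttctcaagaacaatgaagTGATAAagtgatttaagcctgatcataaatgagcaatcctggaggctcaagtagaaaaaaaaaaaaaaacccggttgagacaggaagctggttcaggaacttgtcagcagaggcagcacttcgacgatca
Cd48: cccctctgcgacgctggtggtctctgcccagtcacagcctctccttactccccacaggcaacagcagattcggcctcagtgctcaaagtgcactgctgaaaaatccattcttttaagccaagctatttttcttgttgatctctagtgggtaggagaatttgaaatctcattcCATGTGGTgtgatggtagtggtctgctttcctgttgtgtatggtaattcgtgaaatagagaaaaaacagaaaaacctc
Cd244: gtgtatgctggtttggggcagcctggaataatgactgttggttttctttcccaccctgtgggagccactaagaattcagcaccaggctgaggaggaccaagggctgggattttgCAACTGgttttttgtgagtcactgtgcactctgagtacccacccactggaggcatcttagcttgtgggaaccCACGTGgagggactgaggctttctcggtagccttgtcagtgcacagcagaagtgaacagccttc
The Slamf1 stretch held 1 E-box and 1 GATA match, the Cd48 stretch an overlapping E-box and RUNX match, and the Cd244 stretch 2 E-boxes. Over the 32851 promoter stretches of this length in the table, 66.2% held the E-box, 14.0% the RUNX, 22.5% the GATA and 12.0% the ETS motif. These letters are those of the B6 reference, and the NOD sequence was not used here.

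Expression is given as RPKM, a read number divided by gene length in kilobases and by the depth of the library. The depth recovered from the files was 17060000 to 24090000 reads per library. Intervals on single values and on ratios of 2 libraries are 95% exact intervals from the recovered reads and cover counting error only. The libraries had the high Il2ra and low Cd8a of double negative thymocytes: Il2ra was at RPKM 422.4 to 531.1, and Cd8a, a marker of the next stage, at 0.03 to 0.16. Of the other markers of that stage, Cd8b1 was at 0.04 to 0.24 and Cd1d1 at 21.5 to 23.9. Cd4 was at 1.25 and 0.63 in B6 and at 1.46 and 2.78 in NOD. Rag1 RNA was at RPKM 91.7 to 132.9, and since the removed part of the gene is not given in the sources used here, it does not check the knockout.

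Cd48 was the member with the highest level in every library, followed by Sh2d1a, Slamf6, Cd84 and Ly9, each in the same order in all 4. The RPKM of the adaptor gene Sh2d1a and of Slamf6 had overlapping counting intervals in 3 libraries and were apart in NOD week 4, so their order is resolved there alone. Cd244 and Slamf1 changed places: Slamf1 stood above Cd244 in both B6 libraries and below it in both NOD libraries. In NOD week 6.5 the RPKM interval of Cd244, 4.02 to 4.90, overlapped that of Ly9, 4.38 to 5.53. Slamf7, a receptor of natural killer and plasma cells, was near the detection limit in all libraries, with 5 and 1 reads in the B6 libraries (weeks 4 and 7) and 3 and 9 in those of NOD (weeks 4 and 6.5). The 7 receptors together reached RPKM 113.0 and 116.6 in the B6 libraries against 70.7 and 93.2 in the NOD libraries. Cd48 made up 53.8% and 54.1% of this sum in B6 and 43.9% and 46.3% in NOD. The RPKM of Cd48 was 58.5 and 106.8 times that of its receptor gene Cd244 in B6, and 27.9 and 9.72 times in NOD.

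**Figure D1:**
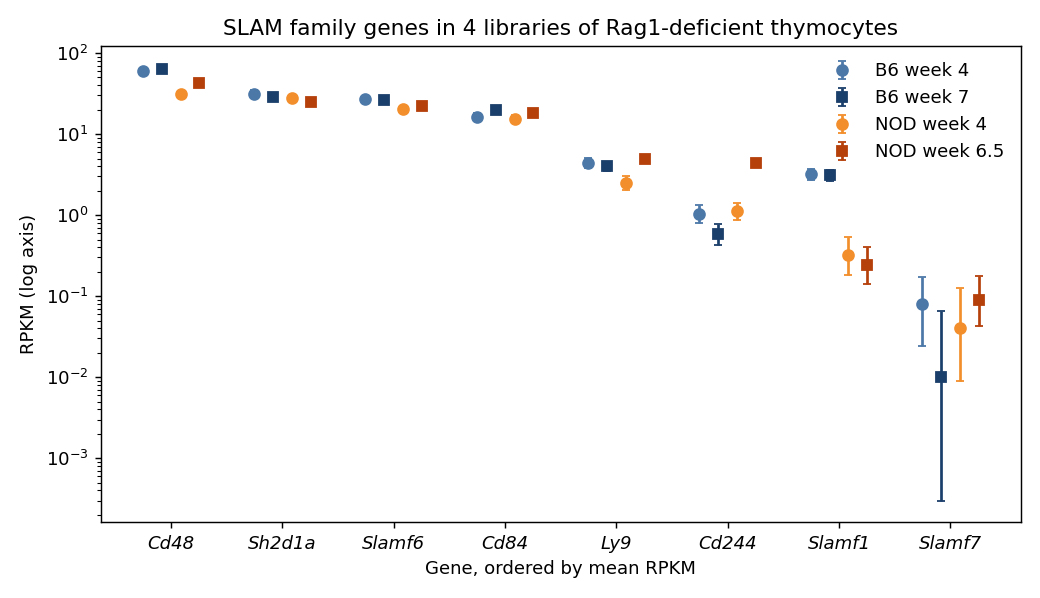
RPKM of the 8 SLAM family genes (log axis) in the 4 libraries, with 95% Poisson intervals of the recovered reads as bars. Slamf1 lies at 3.18 and 3.10 in B6 against 0.32 and 0.24 in NOD, and Cd244 stands out in NOD week 6.5 at 4.44.

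The comparison of NOD with B6 asked which SLAM transcripts differed between the strains over both ages. Slamf1, which encodes CD150, a receptor that binds itself and marks blood stem cells, fell in NOD. B6 thymocytes had an RPKM of 3.18 at 4 weeks and 3.10 at 7 weeks, and NOD thymocytes one of 0.32 at 4 weeks and 0.24 at 6.5 weeks. Both NOD values thus lay about an order of magnitude below both B6 values, with little difference between the ages of a strain. The mean RPKM was 0.280 ± 0.0566 in NOD and 3.14 ± 0.0566 in B6 (SD, n = 2), 11.2-fold higher in B6. On the log2(RPKM + 1) scale the difference was -1.69 (SE 0.16, limma adjusted p = 0.00165), which understates the change of a low gene. By size it ranked 71 of the 197 genes called lower. These values rested on 146 and 177 reads in B6 and 15 and 16 in NOD, with no shared reads, that is, none that also mapped elsewhere. Reads of both strains were placed on B6 sequence, so for this and every lower NOD value a lower RNA level and a loss of NOD reads at sequence differences cannot be told apart. With either B6 library left out Slamf1 missed the filter on low values and could not be called. Fits on the genes of the 4-library filter were added after seeing the data. In these its log2 difference was -1.68 without B6 week 4 and -1.71 without B6 week 7. Each of these fits had a lone B6 library and so is given without a test. Slamf1 entered them only because both B6 values had passed the filter.

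Of the 8 members 7 passed the filter on low values and 1, Slamf1, was called lower and none higher by limma at an adjusted p of 0.05, against 1.59% of all 12413 genes called lower and 2.78% higher, 4.37% in all. The other members tested had an adjusted p of 0.246 or more, and 2 members, Slamf1 and Cd48, had an unadjusted p under 0.05, as did 1574 of the 12413 genes. Slamf1 passed the filter through its B6 values alone, and Slamf7 did not pass. The median log2 difference of the 7 was -0.20, beside 0.096 over all genes tested. The 2 libraries of a strain differed in age, so this test draws on the spread between these 4 libraries. Limma moderates that spread towards a spread shared by genes of like level. The log2 changes of Slamf1 with age, -0.09 in NOD and -0.03 in B6, were smaller than its SE of 0.16. Its p-value thus rests largely on the shared spread.

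Cd48, the ligand of CD244, was at RPKM 60.8 and 63.0 in B6 at weeks 4 and 7 and at 31.0 and 43.15 in NOD at weeks 4 and 6.5. Both NOD values were below both B6 values, and the gap between the NOD libraries was wider than that between the B6 libraries. The mean was 37.1 ± 8.59 in NOD and 61.9 ± 1.57 in B6 (SD, n = 2), 1.67-fold higher in B6. The log2 difference of -0.74 (SE 0.25) did not pass limma after adjustment (unadjusted p = 0.0206, adjusted p = 0.246). Without B6 week 4 the log2 difference was -0.77, and without B6 week 7 it was -0.72, each with a lone B6 library and so given without a test.

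Slamf6, which encodes Ly108, a receptor that binds itself and acts in T-cell maturation, was at RPKM 27.1 and 26.2 in B6 and 20.4 and 22.0 in NOD. Its groups did not overlap, and its log2 difference was -0.32 (SE 0.21, limma adjusted p = 0.613). Cd84, a self-binding receptor found on many blood cells, was at 16.4 and 19.7 in B6 and 15.3 and 18.4 in NOD. These groups overlapped, with the later library higher in each strain. Ly9, the gene of the self-binding receptor CD229, was at 4.45 and 4.0 in B6 and 2.51 and 4.93 in NOD, so that the NOD values lay on either side of those of B6. The log2 differences were -0.09 (SE 0.22, limma adjusted p = 0.895) for Cd84 and -0.19 (SE 0.27, limma adjusted p = 0.805) for Ly9. Without NOD week 4 both turned, to 0.033 for Cd84 and 0.18 for Ly9, and Cd84 also to 0.034 without B6 week 7.

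Cd244, the natural killer cell receptor 2B4 that recognises CD48, was at RPKM 1.04 and 0.59 in B6 and at 1.11 and 4.44 in NOD. NOD week 4 was close to B6 week 4, and NOD week 6.5 stood apart from the other 3 libraries. The mean was 2.77 ± 2.35 in NOD and 0.815 ± 0.318 in B6 (SD, n = 2), with a log2 difference of 0.91 (SE 0.40, limma adjusted p = 0.413). Without NOD week 4 the log2 difference was 1.59, and without NOD week 6.5 it was 0.23, each with a lone NOD library and so given without a test. With age class as a block, which left 1 residual degree of freedom, the limma adjusted p was 0.000468. That fit uses a spread pooled over genes and takes the strain difference as equal at both ages. The ratio of NOD to B6 was 1.07 at week 4 and 7.53 at the later age, so this p-value does not measure the spread of Cd244 itself. In B6 week 4, 12% of the Cd244 reads were shared with other places, and with reads of a single place only the log2 difference was 0.93.

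Sh2d1a was at RPKM 31.6 and 28.9 in B6 and 27.8 and 24.8 in NOD. Its groups did not overlap, but the gap between them, 28.9 against 27.8, was smaller than the difference between the ages of either strain (log2 difference -0.20, SE 0.22, limma adjusted p = 0.757). Xist, the RNA that coats the silenced X of females, was at RPKM 100.0 and 119.8 in the B6 libraries against 20.2 and 77.9 in the NOD libraries. Ddx3y, a Y-linked gene, was at 5.20 and 9.85 in B6 and 16.6 and 6.42 in NOD. Reads of both genes were found in every library, so each appears to hold cells of both sexes and thus of more than 1 mouse. The part of the sexes in the level of the X-linked Sh2d1a was not tested. Counted without a model, 4 members (Slamf1, Cd48, Slamf6 and Sh2d1a) had both NOD values below both B6 values, against 18.7% of all genes tested, and 1 (Cd244) had both above, against 25.3%.

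Within a single age each strain had 1 library, so the ratios that follow describe pairs of libraries and carry no test. Slamf1 was 9.94-fold higher in B6 at week 4 (interval 5.78 to 18.1) and 12.9-fold higher at the later age (7.51 to 22.4). For Cd48 the same ratios were 1.96 (1.78 to 2.17) and 1.46 (1.35 to 1.58). Ly9 lay on different sides at the 2 ages: it was at a ratio of NOD to B6 of 0.564 (0.439 to 0.718) at week 4 and 1.23 (1.03 to 1.48) at the later age. Cd244 had a ratio of 1.07 (0.750 to 1.5) at week 4 and 7.53 (5.57 to 10.4) at the later age. The ratio of Cd84 was 0.935 at both ages, with intervals of 0.795 to 1.10 and 0.823 to 1.06 that include 1. Slamf6 and Sh2d1a had ratios under 1 at both ages, of which only that of Sh2d1a at week 4 had an interval that includes 1: 0.753 (0.689 to 0.824) and 0.840 (0.778 to 0.907) for Slamf6 and 0.881 (0.766 to 1.01) and 0.858 (0.756 to 0.974) for Sh2d1a. Slamf7, with its few reads, had ratios of 0.5 (0.0920 to 3.05) and 9.0 (1.10 to 348.1).

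**Figure D2:**
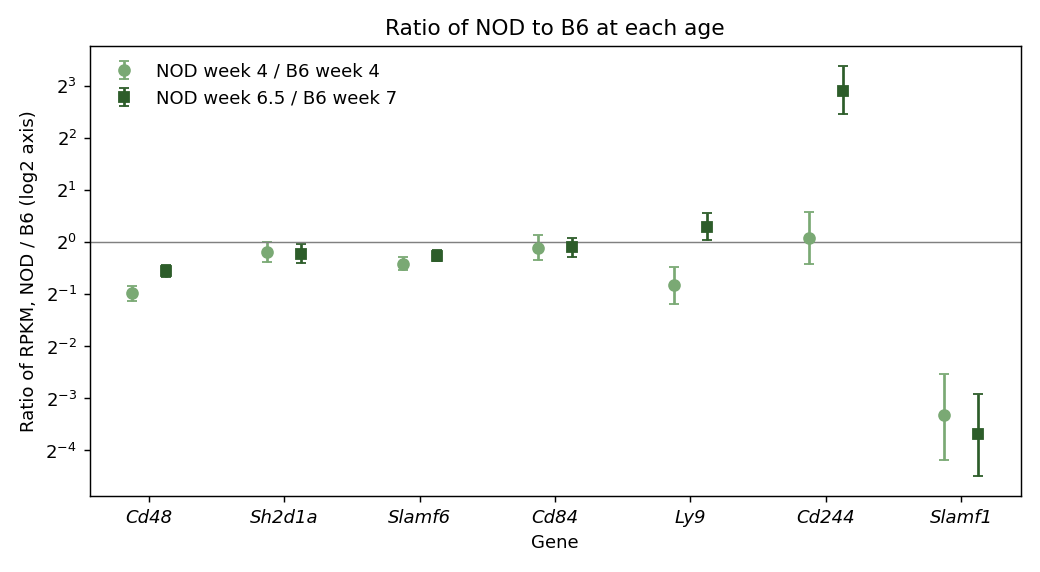
Ratio of NOD to B6 RPKM at week 4 and at the later age (log2 axis) for the 7 members above the detection limit, with 95% exact intervals for counting error. Slamf1 lies far below 1 at both ages, while Cd244 moves from 1.07 to 7.53 and Ly9 crosses 1.

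The median gene differed by a log2 ratio of 0.28 between NOD week 6.5 and B6 week 7 and by -0.38 between B6 week 7 and B6 week 4, so that most genes had a lower RPKM in B6 week 7. Relative to that median, the later log2 ratio of NOD to B6 was -2.0 for Slamf1, -0.81 for Cd48, -0.52 for Slamf6, -0.49 for Sh2d1a, -0.37 for Cd84, -0.03 for Ly9 and 1.5 for Cd244. The turn of Ly9 to above 1 was thus not seen relative to the median gene, and with TMM-type scaling its later log2 ratio was 0.06.

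Among genes at RPKM of 5 or more in either library, 4 members could be counted in each comparison (Cd48, Sh2d1a, Slamf6 and Cd84), and 0 differed 2-fold on the log2(RPKM + 1) scale, beside 2.23% of all genes higher and 2.04% lower at week 4 and 5.91% and 1.62% at the later age. With RPKM of 1 or more, 7 members could be counted. Slamf1 was then 2-fold lower at week 4, as were 2.16% of all genes (2.58% were higher), and at the later age, as were 1.68%, and Cd244 was 2-fold higher at the later age, as were 5.63%.

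Along chromosome 1 the members follow the order Cd244, Ly9, Slamf7, Cd48, Slamf1, Cd84 and Slamf6. The called gene Slamf1 thus lies between Cd48, whose log2 difference was -0.74, and Cd84 with -0.09, the smallest of the members tested. Of 33 genes flanking the cluster, 32 were matched and 21 tested. None was called by limma and 2 had an unadjusted p under 0.05, beside 1574 of all 12413 genes, and these are named here after their values were seen: Vangl2, a planar polarity gene next to Slamf6, with a log2 difference of -0.53 (limma adjusted p = 0.361), and Usp21, a deubiquitinase gene, with 0.69 (limma adjusted p = 0.387). The median of the tested flanking genes was 0.13, and their log2 differences ran from -0.53 to 0.69. Among the most abundant of them, the mitochondrial gene Sdhc was at 0.09, Arhgap30 at 0.17 and Wdr42a (Dcaf8) at 0.16. Each of these 3 had overlapping groups.

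**Figure D3:**
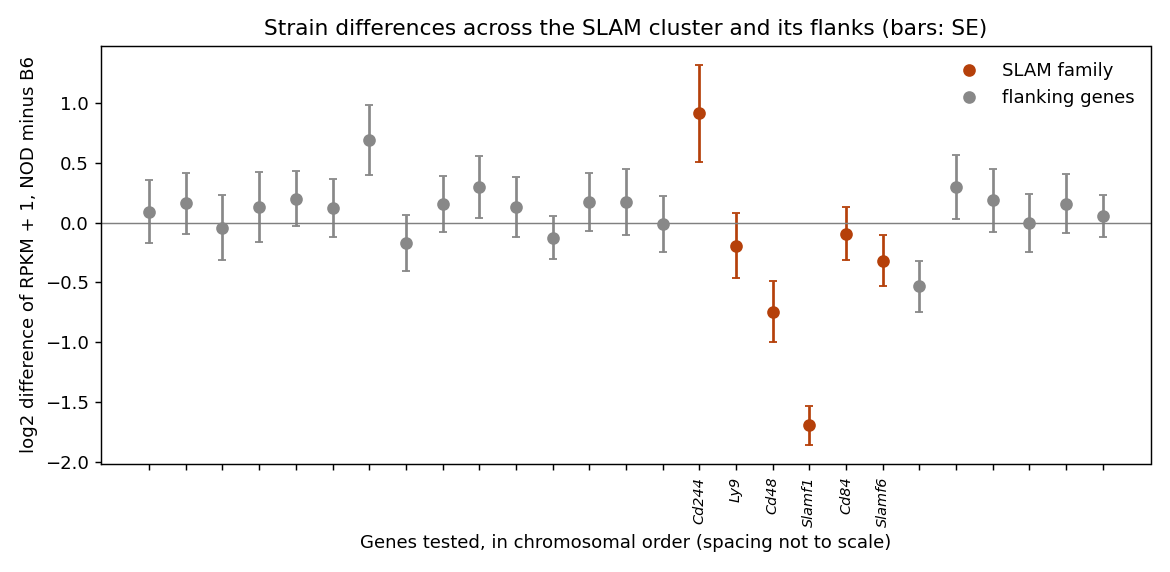
Log2 difference of RPKM + 1 between NOD and B6 (mean of 2 libraries per strain, bars show the SE from limma) for the tested genes of the SLAM cluster and its flanks, in chromosomal order with the names of the SLAM genes. Slamf1 at -1.69, Cd48 at -0.74 and Cd244 at 0.91 lie outside the range of the tested flanking genes, -0.53 to 0.69. Flanking genes that missed the filter, among them Itlna next to Cd244, are not shown.

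The change with age was read within each strain, from 1 library per age and so with no replicate check. In NOD, Cd244 was 4.0-fold higher at week 6.5 than at week 4 (interval 3.11 to 5.22) and Ly9 1.96-fold (1.57 to 2.48), while Cd48 was 1.39-fold (1.26 to 1.54) and Cd84 1.20-fold (1.04 to 1.39) higher. Slamf6 at 1.08 (0.988 to 1.18), Sh2d1a at 0.892 (0.779 to 1.02), Slamf1 at 0.750 (0.354 to 1.66) and Slamf7 at 2.25 (0.537 to 12.4) had intervals that include 1. In B6, Cd244 was lower at week 7, at a ratio of 0.567 (0.379 to 0.830), and Cd84 higher at 1.20 (1.04 to 1.39), and the intervals of the other 6 included 1. The ratio of Cd84 to its week 4 level was 1.20 in both strains.

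**Figure D4:**
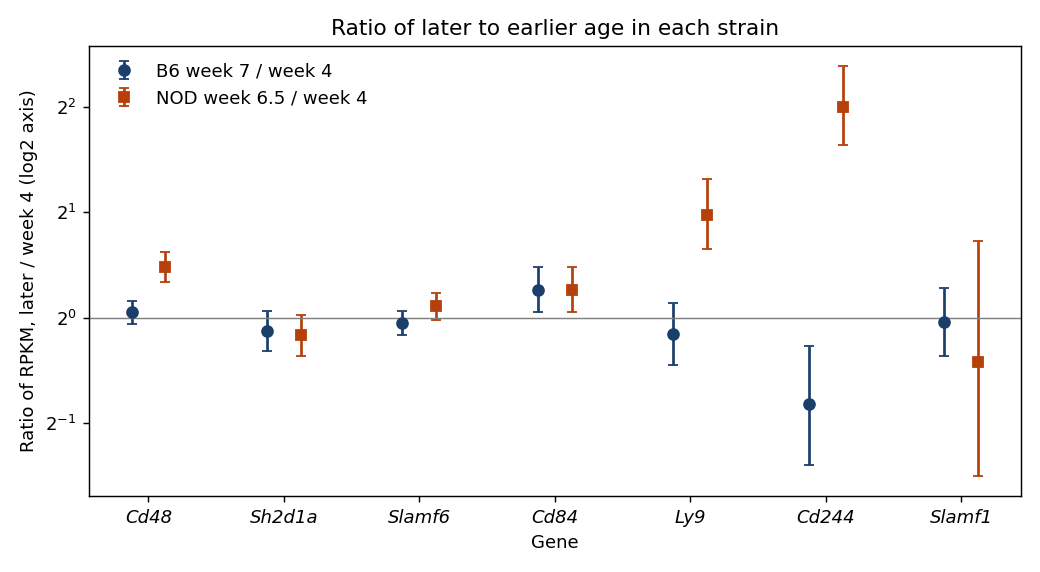
Ratio of RPKM at the later age to week 4 within each strain (log2 axis) for the same 7 genes, with 95% exact intervals for counting error. Cd244 lies at 4.0 in NOD and 0.567 in B6, and Ly9 at 1.96 in NOD, whereas the points of Cd84 coincide at 1.20.

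With scaling of the TMM type, which removes most of the median shift, the B6 log2 ratios of age turned from -0.03 to 0.21 for Slamf1, from -0.05 to 0.25 for Slamf6, from -0.12 to 0.12 for Ly9 and from -0.12 to 0.17 for Sh2d1a, while that of Cd244 went from -0.36 to -0.23. In NOD no member changed direction with this scaling. Relative to the median gene, Cd244 was at 0.02 in B6 and 1.42 in NOD. At RPKM of 5 or more, 0 of 4 members differed 2-fold with age in NOD, beside 0.682% of all genes higher and 0.139% lower. The same count of 0 of 4 held in B6, beside 0.14% higher and 3.82% lower. With RPKM of 1 or more, Cd244 was 2-fold higher in NOD, 1 of 6 members, against 0.716% of all genes, and 0 of 7 members differed 2-fold in B6, beside 0.219% higher and 3.02% lower.

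Markers of other cells that carry these receptors were read beside Cd244 and Slamf1. The summed RPKM of 13 natural killer and innate lymphoid genes came to 153.5 and 138.5 in B6 and 115.2 and 101.2 in NOD, lowest in NOD week 6.5 where Cd244 was highest, and came mostly from Gzma and Nkg7. Among the defining genes of these cells, Ncr1 was at 0.08 to 0.28 in the 4 libraries. Klrd1 and Klrk1 were listed at 0 in NOD week 6.5, against 1 to 3 and 6 to 10 reads in the others. Id2 and Il2rb were also lowest there, at 3.50 and 0.09. Tbx21, Prf1 and Eomes had both NOD values above both B6 values and were highest in NOD week 4, at 0.33, 0.33 and 0.08. Zbtb16, which encodes the transcription factor PLZF, and Klrb1c, which encodes NK1.1, were highest in NOD week 6.5, as Cd244 was. Zbtb16 was at 0.03 and 0.06 in the B6 libraries and 0.27 and 0.79 in those of NOD, and Klrb1c at 0.16 and 0.08 and at 0.20 and 0.45. Gzmb, a granzyme gene, was at 0.41 and 0.53 in B6 and at 0.41 and 7.67 in NOD and thus also stood apart in NOD week 6.5. Of these 13 genes 3 were tested and 0 called by limma, and 9 were under RPKM 1 in all libraries. The 11 stem and progenitor genes summed to RPKM 41.5 and 36.55 in B6 and 11.15 and 44.7 in NOD. Of these, Kit, the stem cell factor receptor gene, was at 6.33 in NOD week 4 and 19.4 in NOD week 6.5, and 7.62 and 4.25 in B6. Ly6a, the Sca-1 gene, was the 1 of 5 tested genes of this list that limma called, and fell in NOD: it was at 25.85 and 28.9 in B6 and 2.17 and 3.31 in NOD (log2 difference -2.94, adjusted p = 0.000645). The part of such cells in the levels of Cd244 and Slamf1 was not tested, and in bulk RNA fewer cells of a type and less RNA per cell cannot be told apart. The 8 B-cell genes summed to 72.6 and 52.05 in B6 and 40.5 and 53.9 in NOD, with Ms4a1 and Pax5 listed at 0 throughout, and limma called 1 of the 3 tested, Cd72, an inhibitory receptor gene (log2 difference -0.96, adjusted p = 0.0158). The 12 myeloid and dendritic genes summed to 24.7 to 29.0 in the 4 libraries, with Csf1r at 0.05 to 0.13. The 8 megakaryocyte and erythroid genes summed to 41.3 and 11.6 in B6 and 43.7 and 6.46 in NOD, lower at the later age. These sums came almost wholly from the globin genes Hba-a1 and Hbb-b1, with 85% to 100% of their reads shared with other places. The other 6 genes were under RPKM 1 in all libraries. The 6 double positive thymocyte genes summed to 205.4 and 178.6 in B6 and 103.55 and 87.8 in NOD. The last sum came mostly from Aqp11, an aquaporin gene and the 1 of 3 tested genes of that list called by limma (log2 difference -1.27, adjusted p = 0.0414). Cd4 went the other way, with both NOD values above both B6 values and the highest in NOD week 6.5 (log2 difference 0.67, limma adjusted p = 0.331). Cd1d1, the third tested, had overlapping groups (log2 difference 0.05). Of the 11 double negative thymocyte genes, among them Il2ra, all were tested and 0 called by limma.

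The other receptors and adaptors of the family were barely detected. Slamf8 had 1 read, in B6 week 7. Slamf9 was listed at 0 in both B6 libraries, where 3 reads would give RPKM 0.135 and 0.108, and at 0.09 and 0.41 in NOD, from 2 and 13 reads. The SAP-related adaptor genes Sh2d1b1 and Sh2d1b2 were at RPKM 0.04 or less in all libraries, the second listed at 0 throughout. Sh2d1a was thus the only adaptor gene of the 3 measured with an RPKM above 0.04.

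Cd2, which encodes an adhesion receptor that also binds CD48 in the mouse, is named here after its values were seen. It was at RPKM 0.15 in B6 week 4 and 0 in B6 week 7, and at 0.86 and 3.45 in NOD weeks 4 and 6.5. These values rested on 3, 0, 17 and 95 reads. At the later age NOD stood 28.0-fold above a floor of 3 reads in B6 week 7, with a lower 95% counting limit of 22.3 on the ratio, and NOD week 6.5 was 4.01-fold (2.37 to 7.16) above NOD week 4. Both receptors of CD48, Cd2 and Cd244, thus had their highest level in NOD week 6.5. Cd2 did not pass the filter on low values and was not tested.

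The kinases and partners that act with SLAM receptors were measured in the same libraries. Among 7 genes of the ligand and kinase list, 4 were tested and 0 called higher or lower by limma, with 0 at an unadjusted p under 0.05. Lck, the kinase of early T-cell signalling, had a log2 difference of 0.27, Fyn, the partner of SAP, of 0.44, Fgr of -0.01 and Lyn of 0.01. Fyn reached RPKM 23.6 and 14.2 in B6 and 23.9 and 26.6 in NOD. Of 5 phosphatases and inhibitory partners 0 were called by limma and 0 had an unadjusted p under 0.05. Ptprc (CD45) had a log2 difference of -0.19, Csk of 0.52, Ptpn6 (SHP-1) of 0.30 and Ptpn11 (SHP-2) of 0.48. Of 18 downstream genes 0 were called by limma and 1 had an unadjusted p under 0.05. Lat, a membrane adaptor gene, was at 0.24, Vav1 at 0.20, Plcg1 at 0.55 and Lcp2 at 0.17. The medians of the 3 lists were 0.14, 0.35 and 0.19, beside 0.096 over all genes tested.

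The genes with the pattern most like that of Slamf1 over the 4 libraries were sought among 6504 genes that reached RPKM 5 in some library and had under 10% shared reads. Nearest were 1810030N24Rik (Smim8), 2900016B01Rik and the sorting nexin gene Snx13, at Euclidean distances of 0.18, 0.19 and 0.23 between mean-centred log2(RPKM + 1) values. 1810030N24Rik had RPKM values of 15.8 and 15.3 in B6 and 5.13 and 4.30 in NOD, and Snx13 values of 15.7 and 16.4 against 5.35 and 4.99. Those of 2900016B01Rik were 5.10 and 3.99 against 0.85 and 0.70. That all 3 had both NOD values below both B6 values, as Slamf1 did, follows from how they were chosen.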

How the data were processed

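RNA-seq libraries of flow-sorted Rag1-/- thymocytes were analysed, 2 per strain. Reads were aligned with Bowtie 0.12.1 to mm9, which is B6 sequence, per the submitters' processing notes. Per the file headers, the deposited values were RPKM, a gene length in kilobases and the fraction of reads mapped to more than 1 place. Which program counted reads, and how shared reads were treated, is not given in these sources. Reads of 32 bases (per the names of the deposited tables) from NOD transcripts were thus placed on B6 sequence.

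Depth was recovered as the smallest at which RPKM of short genes gave whole reads. Of these values 98.7% to 100% lay within 0.1 reads of a whole number, where 20% do by chance. Between 11841 and 12278 genes per library had RPKM of 1 or more. For NOD against B6, log2(RPKM + 1) of the 12413 genes that reached RPKM 1 in 2 or more libraries was fitted in R 4.3.3 by limma 3.58.1. The model held strain alone and an intensity trend, tests were two-sided, and p-values were adjusted by Benjamini-Hochberg across those genes. The procedure was tested on simulated data. The libraries of a strain differ in age and nothing says which animals they came from. The p-values thus rest on the spread between these libraries, which limma moderates towards a spread shared by genes of like level. With the age block the spread was pooled over genes. Alternatives were another pseudocount, no filter, TMM-type and quantile scaling, an age block, reads of a single place only, genes under 10% shared reads, no trend, and leaving out each library.

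All 8 members are reported. Of the other genes of the lists, those called and up to 4 with the highest mean RPKM per list are named, besides defining markers at or near 0 and genes that the text says were named after their values were seen. Some genes that this rule would name are not reported here. For called members the 3 nearest patterns are given. The members and lists were chosen with earlier results of these data known. Of 144 list entries 143 were matched by symbol or by Entrez identifier in the RefSeq table of GRCm38.p6, which also gave chromosomes and gene order.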

Additional observations from a re-analysis of the deposited data

Results flagged for a closer look

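Cd244 differed in its change with age between the strains: its RPKM went from 1.11 to 4.44 in NOD and from 1.04 to 0.59 in B6. The log2 changes were 1.37 and -0.36, a difference of 1.73 (NOD minus B6), and the counting intervals of the strains lay on opposite sides of no change. The difference rests on 1 library per strain and age and was not tested against replicates. Relative to the median gene the B6 change was 0.02 and the NOD change 1.42.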

How the results depend on the processing

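Slamf1 stayed lower in NOD in all 12 alternatives that tested it, with log2 differences of -3.10 (pseudocount 0.1) to -1.65. With no library left out limma called it each time, at adjusted p-values of 9.79e-14 (age block) to 0.0458 (no filter on low values). All fits except that without a filter took it in through its B6 values alone, so they favour a gene high in B6. Those on the genes of the 4-library filter were added after seeing the data. The labels give no replicate numbers, so the libraries were paired by age class (week 4 or later), which left 1 residual degree of freedom. The p-values of this age block rest on a spread pooled over genes, not on that of Slamf1 or Cd244. With this age block limma called 2 members, Slamf1 and Cd244, and 665 genes higher and 340 lower in place of 345 and 197. Without a filter it called 82 higher and 40 lower, and among genes under 10% shared reads 121 and 70. Leaving out 1 library gave 0 to 2 members called, 140 to 3271 genes higher and 123 to 433 lower. The 0 came without B6 week 7, where Slamf1 missed the filter, and the 3271 without B6 week 4. On the genes of the 4-library filter, 2919 were higher and 452 lower without B6 week 4, with Slamf1 the 1 member called. Leaving out a library moved the log2 difference of Cd84 from -0.22 to 0.034 and that of Ly9 from -0.57 to 0.18. Without B6 week 7, Cd84 was at 0.034 on the genes of the 4-library filter as well. Members that differed 2-fold at RPKM of 1 or more numbered 1 at week 4, 2 at the later age and 1 with age in NOD, against 0 in each at RPKM of 5 or more. Slamf6 and Sh2d1a kept their direction and missed the threshold in all 14 alternatives each. The 15 and 16 Slamf1 reads of the NOD libraries limit the precision of its fold.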
